A study of Homo sapiens with 10 samples.

Results

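The 78 genes described here are those named for proteins of the mitochondrial ribosome, with symbols MRPL or MRPS followed by a number and, for some, a letter A to C. They were found by symbol among the 60558 genes of the tables, and 49 are named MRPL for the large subunit and 29 MRPS for the small subunit. All 78 passed the filter on low counts, and so belong to the 15690 genes tested. They were measured as mRNA in PC3, an established line from a bone metastasis of prostate cancer. In 5 cocultivated libraries the PC3 cells had shared 3 days of culture with adipocytes from human bone marrow, and 5 non-cocultivated libraries came from PC3 cells without them. One library of each kind carries each batch number from 1 to 5. The labels name 1 cell line and do not say whether libraries of a group came from separate cultures, so p-values measure only the spread between these libraries, which may be technical.

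The mitochondrial ribosome translates the few mRNAs of the mitochondrial genome, which encode core subunits of the respiratory chain and of ATP synthase. Its rRNAs are made in the mitochondrion, but all its proteins are encoded in the nucleus, made in the cytosol and imported. Some of these proteins have a counterpart in the bacterial ribosome and others are specific to mitochondria. As parts of 1 particle, they are often followed as a set. The comparison asks which of these mRNAs differ in the cancer cells when marrow adipocytes are present, and whether the 2 subunits differ from each other.

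The mRNAs for the mitochondrial ribosome stayed close to their level without adipocytes, with small differences in some of them. How many passed depended on whether the batch entered the fit. MRPS10 and MRPL52 rose in the cocultivated libraries, by 13.2% and 13.1%. MRPS6, MRPL48, MRPL16 and MRPS26 fell, by 17.8%, 13.4%, 13.0% and 10.4%. These 6 passed a Benjamini-Hochberg adjusted p under 0.05 in edgeR's quasi-likelihood test without a batch block, adjusted over all 15690 genes. They make up 7.69% of the 78 members, while 33.6% of all tested genes passed (17.9% higher and 15.8% lower). Among the 8425 genes whose mean level lies in the members' own range, 39.0% passed. The large subunit had 1 member higher and 2 lower of 49, and the small subunit 1 higher and 2 lower of 29. With the batch as a block, 23 members passed, 7 higher and 16 lower. That is 29.5% of the members, against 44.4% of all tested genes.

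The 6 genes are MRPS10 (ENSG00000048544), MRPL52 (ENSG00000172590), MRPS6 (ENSG00000243927), MRPL48 (ENSG00000175581), MRPL16 (ENSG00000166902) and MRPS26 (ENSG00000125901). Their promoters are shown because motifs in them are set beside the members' values further on. Each is the stretch from 100 bases before to 50 bases after the gene's start in RefSeq (GRCh38.p14), written 5′ to 3′ on the gene's own strand. Capitals mark CCGGAAG, the core letters bound by ETS factors such as GABP, and AAGATGGC, letters bound by YY1, either one also as its reverse complement.
MRPS10, chr6:42217812-42217961, minus strand: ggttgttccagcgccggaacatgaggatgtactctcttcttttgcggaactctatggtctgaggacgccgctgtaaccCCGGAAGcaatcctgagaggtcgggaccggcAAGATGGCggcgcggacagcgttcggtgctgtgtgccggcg
MRPL52, chr14:22829787-22829936, plus strand: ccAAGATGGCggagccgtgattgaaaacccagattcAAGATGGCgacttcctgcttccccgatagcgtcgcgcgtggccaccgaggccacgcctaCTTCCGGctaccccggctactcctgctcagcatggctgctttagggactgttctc
MRPS6, chr21:34073478-34073627, plus strand: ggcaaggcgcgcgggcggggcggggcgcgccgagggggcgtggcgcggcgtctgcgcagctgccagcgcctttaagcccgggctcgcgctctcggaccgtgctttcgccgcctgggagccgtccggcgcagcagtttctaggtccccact
MRPL48, chr11:73787774-73787923, plus strand: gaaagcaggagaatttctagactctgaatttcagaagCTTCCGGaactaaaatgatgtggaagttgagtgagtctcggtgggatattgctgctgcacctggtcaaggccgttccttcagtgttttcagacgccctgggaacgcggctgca
MRPL16, chr11:59810729-59810878, minus strand: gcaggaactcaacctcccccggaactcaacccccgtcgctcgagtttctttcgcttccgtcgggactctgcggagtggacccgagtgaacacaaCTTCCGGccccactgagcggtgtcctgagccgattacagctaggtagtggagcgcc
MRPS26, chr20:3045952-3046101, plus strand: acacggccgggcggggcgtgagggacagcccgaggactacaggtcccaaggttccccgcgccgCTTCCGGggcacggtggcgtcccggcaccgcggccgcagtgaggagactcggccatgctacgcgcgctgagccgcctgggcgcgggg

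Library depth was 39074949 to 51515712 expected counts, and the members took 0.563% to 0.643% of the counts of a library. The lowest count of any member in any library was 506. The part of counting error in the spread given below was not tested. Among markers of other cells, the summed level of 10 adipocyte markers was 245 to 364 CPM in cocultivated libraries and 144 to 166 CPM in non-cocultivated ones. ADIPOR2, FABP4 and PLIN4 made up most of it. Of the 6 adipocyte markers tested, edgeR called 2 higher, FABP4 (149 CPM on average in cocultivated and 27.1 CPM in non-cocultivated libraries) and PLIN4 (49.01 and 22.6 CPM). It called 2 lower, CIDEC (2.26 and 4.15 CPM) and ADIPOR2 (84.5 and 90.5 CPM). CIDEA was at 0 in every library and ADIPOQ, LEP and LPL averaged under 0.02 CPM in both groups. The summed levels of 8 stromal markers (3.53 to 5.33 against 9.70 to 11.4 CPM) and of 5 endothelial markers (18.7 to 25.9 against 31.6 to 43.6 CPM) were lower in the cocultivated libraries. The endothelial sum followed KDR (10.3 CPM on average in cocultivated and 24.1 CPM in non-cocultivated libraries), while TEK was called higher (1.47 and 0.809 CPM) and PECAM1 was not called (11.1 and 10.2 CPM). The summed levels of 8 haematopoietic markers were 42.5 to 49.96 CPM in cocultivated and 32.9 to 39.4 CPM in non-cocultivated libraries, mostly CD68, with CD3E at 0. Of the 2 tested, CD68 was called higher (45.8 CPM on average in cocultivated and 32.5 CPM in non-cocultivated libraries). LYZ was called lower (0.566 and 2.18 CPM). The 5 epithelial markers of the line summed to 667 to 772 CPM in cocultivated and 970 to 1040 CPM in non-cocultivated libraries. All 5 were detected in both groups. EdgeR called all 5 lower in the cocultivated libraries, with log2 fold changes from −0.94 (KRT8) to −0.14 (EPCAM). KLK3, which PC3 is known to lack, was at 0. The part of other cells' RNA in the results below was not tested. In such bulk RNA, fewer cells of a type and less RNA per cell cannot be told apart.

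In the small subunit, MRPS6 is the counterpart of bacterial S6, a protein of the platform that pairs with S18 in bacteria. It had 40.5, 46.0, 45.1, 47.2 and 42.6 CPM in cocultivated libraries 1 to 5, against 49.2, 54.8, 56.2, 55.0 and 54.3 CPM in the non-cocultivated ones. The groups did not overlap, and the lowest non-cocultivated library, that of batch 1, lay nearest to the highest cocultivated one. The log2 fold change was −0.28 ± 0.05 (SE, n = 5 and 5), with an edgeR adjusted p of 8.63e-04, and all 5 batches were lower. This was the only member whose log2 fold change exceeded 0.25 in size, 1.28% of the members against 32.5% of all tested genes. Exons of MRPS6 overlap on the same strand with SLC5A3, a myo-inositol transporter gene of similar abundance here (2350 counts on average). SLC5A3 had a log2 fold change of −0.39 ± 0.13 with an edgeR adjusted p of 0.0281. Of the 75-base windows of MRPS6 transcripts, 5.70% also occur in 2 other genes, most of them (5.04% of all windows) in AP000317.2, which had 0.256 counts on average. How reads were divided between MRPS6 and SLC5A3 was not tested.

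MRPS26, a mitochondria-specific protein of the small subunit, had the smallest standard error of the members. Its levels were 52.0, 54.1, 53.3, 55.9 and 55.6 CPM in cocultivated libraries 1 to 5, against 59.0, 61.4, 61.6, 60.2 and 60.1 CPM in the non-cocultivated ones. Every cocultivated library lay below every non-cocultivated one. The log2 fold change was −0.16 ± 0.03 with an edgeR adjusted p of 0.00329.

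MRPS10, the counterpart of bacterial S10 in the head of the small subunit, went the other way. It had 100.5, 117, 114, 124 and 115 CPM in cocultivated libraries 1 to 5, against 91.4, 103, 106, 101 and 102 CPM in the non-cocultivated ones. It was higher in all 5 batches, but the cocultivated library of batch 1 lay below 4 of the 5 non-cocultivated libraries, so the groups overlapped. The log2 fold change was 0.18 ± 0.06 with an edgeR adjusted p of 0.0265. Leaving out 1 library moved the adjusted p over a range of 0.00362 to 0.0691, and the call was lost without cocultivated library 2, 3 or 4 and without non-cocultivated library 1 or 4 (0.0623, 0.0533, 0.0691, 0.0586 and 0.0529).

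In the large subunit, MRPL48 is a mitochondria-specific protein of the central protuberance, the crest of the large subunit. Its levels were 20.4, 23.5, 22.2, 22.6 and 23.1 CPM in cocultivated libraries 1 to 5, against 25.2, 25.9, 25.4, 25.9 and 26.7 CPM in the non-cocultivated ones. The groups did not overlap, and the lowest value was that of cocultivated library 1. The log2 fold change was −0.21 ± 0.05 with an edgeR adjusted p of 0.00401.

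MRPL16 is the counterpart of bacterial L16, which in bacteria lies beside the site where peptide bonds are formed. It had 48.6, 48.1, 44.8, 47.7 and 45.8 CPM in cocultivated libraries 1 to 5, against 56.5, 58.9, 54.2, 50.5 and 50.2 CPM in the non-cocultivated ones. The groups did not overlap, and the non-cocultivated libraries of batches 4 and 5 lay nearest to the cocultivated ones. The log2 fold change was −0.20 ± 0.05 with an edgeR adjusted p of 0.00747.

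MRPL52, a mitochondria-specific protein, was the one large-subunit member called higher without a batch block. With the batch as a block, MRPL23, MRPL34, MRPL9 and MRPL33, named after their values were seen, were called higher too (edgeR adjusted p 0.0156, 0.0172, 0.0282 and 0.0489). MRPL52 had 61.8, 76.7, 67.3, 72.2 and 77.9 CPM in cocultivated libraries 1 to 5, against 59.7, 63.2, 63.0, 63.9 and 64.8 CPM in the non-cocultivated ones. The cocultivated library of batch 1 lay inside the non-cocultivated range and the other 4 lay above it. The log2 fold change was 0.18 ± 0.06 with an edgeR adjusted p of 0.0343. Leaving out 1 library gave adjusted p of 0.00319 to 0.0920, and the call was lost without cocultivated library 2, 4 or 5 (0.0920, 0.0661 and 0.0534) and without non-cocultivated library 1, 2, 3 or 4 (0.0705, 0.0642, 0.0666 and 0.0590). The calls of MRPS6, MRPS26, MRPL48 and MRPL16 were kept without any 1 library, with adjusted p of at most 0.0236.

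**Figure D1:**
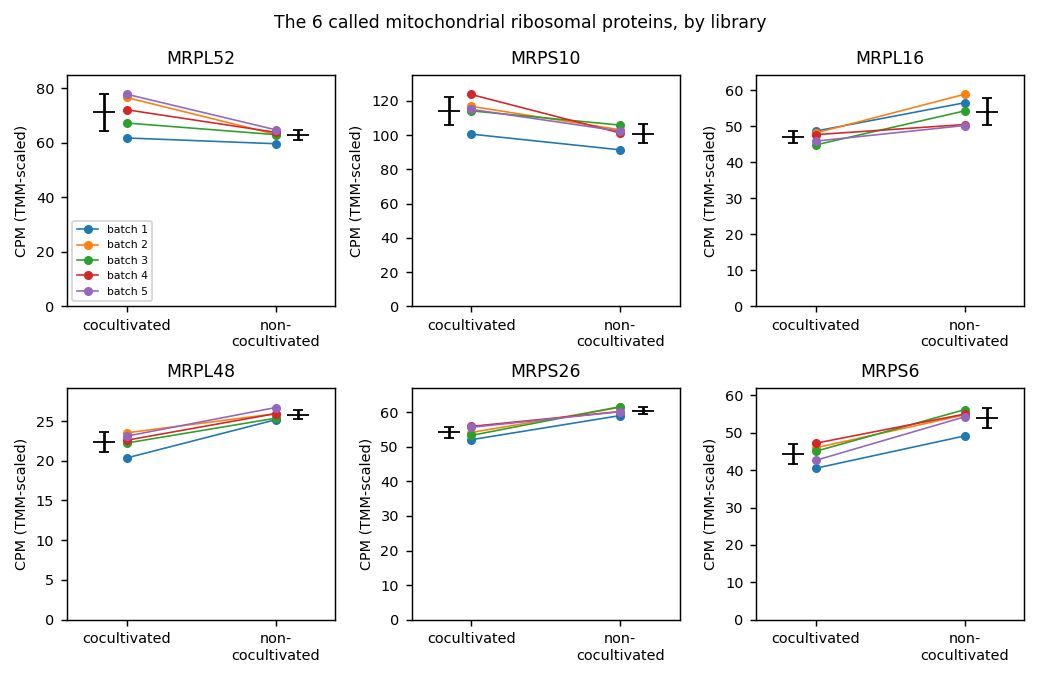
Level of the 6 members called without a batch block, in CPM on TMM-scaled library sizes (y axis, from 0). Each panel has cocultivated libraries on the left and non-cocultivated on the right. Points are libraries, lines join the libraries of 1 batch, and black bars give the mean ± SD of 5 libraries. MRPL16, MRPL48, MRPS26 and MRPS6 do not overlap between the groups, and MRPL52 and MRPS10 do.

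Counted by library, 4 of the 78 members had groups that did not overlap, all 4 lower in the cocultivated libraries, whereas 25.4% of all tested genes did not overlap (13.7% higher and 11.7% lower). The direction was the same in all 5 batches for 9 members that were higher and 18 that were lower, 34.6% of the members, against 48.6% of all tested genes. Without an adjustment, 13 members had an edgeR p under 0.05, 16.7% of them, against 42.9% of all tested genes. The member nearest to the threshold without passing it was MRPS25, a mitochondria-specific small-subunit protein, named after its value was seen, with a log2 fold change of −0.11 ± 0.04 and an edgeR adjusted p of 0.0538.

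The 72 members that did not pass without a batch block were measured precisely enough to bound their change on the TMM scale. The standard error of the log2 fold change had a median of 0.051 over the 78 members and ranged from 0.035 to 0.082. For 69 of the 72, the 95% interval lay within ±0.25, that is between −15.9% and 18.9%. For all 78, it lay within ±0.5, the outermost bounds being −0.39 for MRPS6 and 0.32 for MRPL23, named here for that bound. The fitted log2 fold changes of the 72 ran from −0.16 to 0.17. A p that misses the threshold does not show that a level was the same. The intervals give the changes that these libraries leave possible on the TMM scale, without a batch block. On log2(TPM + 1), described below, the median log2 fold change of the members was −0.10, against −0.022 with TMM. The intervals do not cover that shift between scales.

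**Figure D2:**
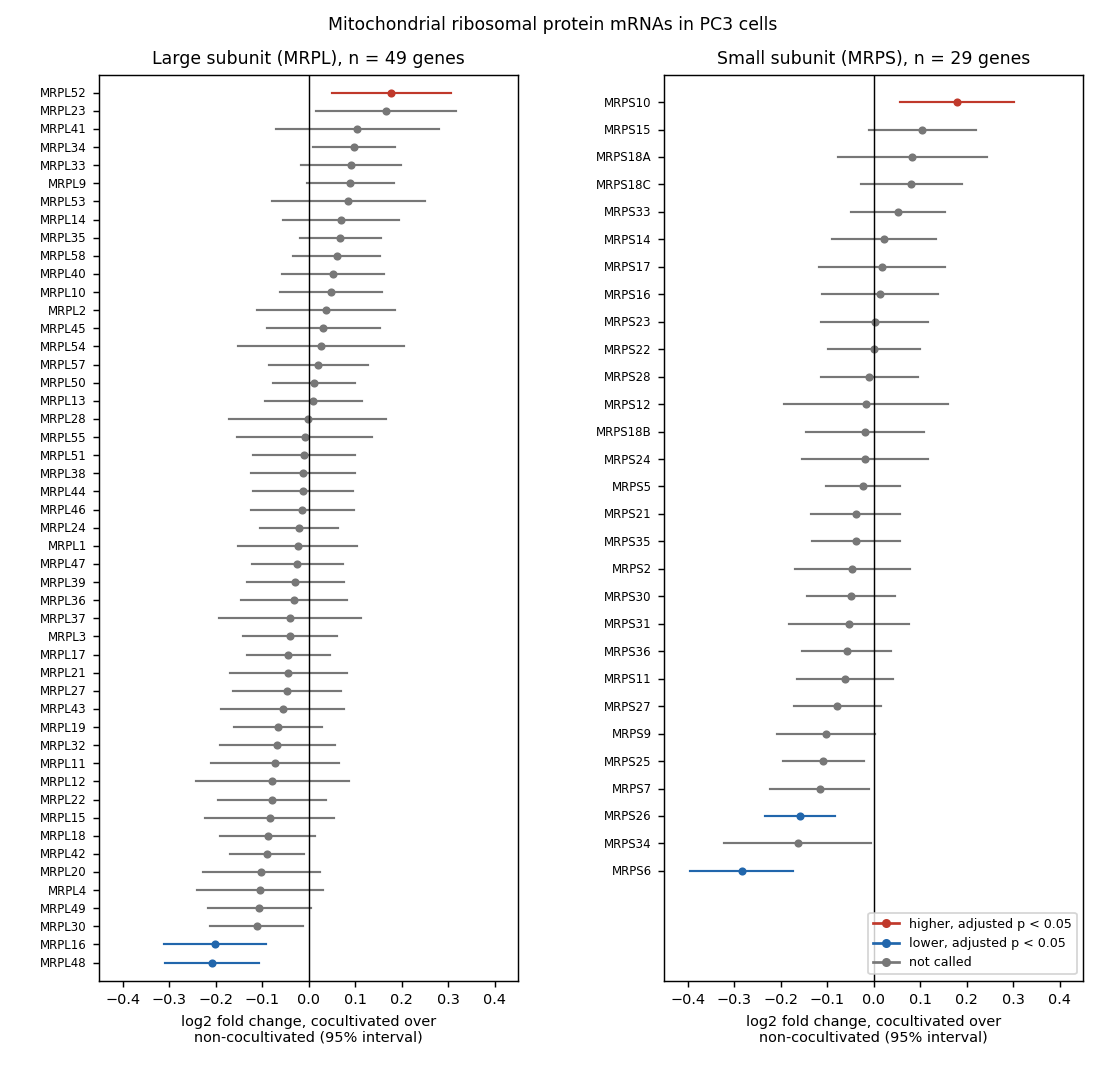
Log2 fold change of each member, cocultivated over non-cocultivated (x axis), for the 49 MRPL genes (left) and the 29 MRPS genes (right). Bars are the 95% interval from the edgeR fit without a batch block, n = 5 libraries per group. The points run from MRPS6 at −0.28 to MRPS10 at 0.18, and 2 members are marked higher and 4 lower.

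The 2 subunits differed little in the middle of their members' fold changes. The median log2 fold change was −0.021 for the 49 large-subunit members and −0.023 for the 29 small-subunit members, against −0.009 for all tested genes. The large minus the small median was 0.0018. By batch it was 0.036, 0.0069, 0.012, 0.016 and −0.026 for batches 1 to 5, with an SD of 0.022, so the difference between the subunits was smaller than its spread between batches. Of the 78 members, 28 had a positive and 50 a negative fold change. The median size of the log2 fold change, its sign set aside, was 0.053 for the members and 0.155 for all tested genes. Leaving out cocultivated library 1 turned the median of all members positive (0.0011), and leaving out non-cocultivated library 1 gave −0.053.

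The symbols of 3 members do not match their place in the ribosome. MRPS18A and MRPS30 sit in the large subunit, and MRPS36 is a component of the 2-oxoglutarate dehydrogenase complex and belongs to neither subunit. Their log2 fold changes were 0.08 ± 0.07, −0.05 ± 0.04 and −0.06 ± 0.04, and none passed (edgeR adjusted p 0.427, 0.441 and 0.346). Grouped by structure, 51 members belong to the large and 26 to the small subunit, with 1 higher and 2 lower in each. The 46 members with a bacterial counterpart had 1 higher and 2 lower, and the 31 mitochondria-specific ones likewise, with median log2 fold changes of −0.024 and −0.012.

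**Figure D3:**
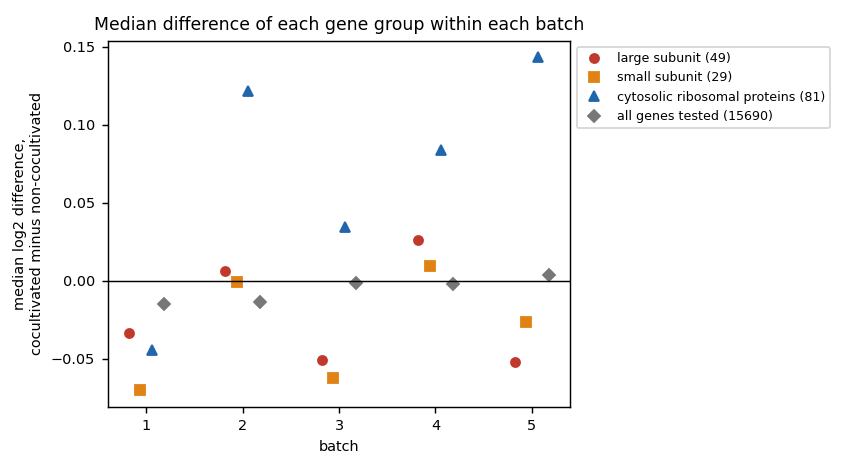
Median log2 difference, cocultivated minus non-cocultivated (y axis), within each batch (x axis), for the large and the small subunit, the cytosolic ribosomal proteins and all tested genes. The 2 subunits lie between −0.070 and 0.026 and differ by at most 0.036 within a batch, while the cytosolic ribosomal proteins run from −0.044 in batch 1 to 0.143 in batch 5.

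Levels of different members can be set side by side in TPM, which is per length. They spanned a 21.5-fold range, from 16.1 TPM for MRPS14 to 348 TPM for MRPL20 (mean over the 10 libraries), with a median of 92.6 TPM, and 36 members lay above 100 TPM. MRPL20, the counterpart of bacterial L20, an early assembly protein of the large subunit in bacteria, had 326 ± 11.5 TPM in cocultivated and 370 ± 14.9 TPM in non-cocultivated libraries (SD, n = 5 each). MRPS16, the highest of the small subunit, had 347 ± 16.5 TPM in cocultivated and 341 ± 10.4 TPM in non-cocultivated libraries. At the low end, MRPS14 had 16.4 ± 1.42 TPM in cocultivated and 15.9 ± 1.12 TPM in non-cocultivated libraries. MRPL50, the lowest of the large subunit, had 25.7 ± 1.59 and 26.8 ± 0.750 TPM in the cocultivated and the non-cocultivated libraries. None of these 4 passed the TMM-scaled test on counts (edgeR adjusted p 0.201, 0.882, 0.772 and 0.858 in the order given). In TPM the groups of MRPL20 did not overlap (308 to 335 against 350.5 to 388), and MRPL20 was called lower by limma on log2(TPM + 1) (log2 fold change −0.18, adjusted p 0.00281), with library totals in edgeR (−0.16, 0.0186) and with the batch as a block (−0.10, 0.0149). Across the 78 genes, the level and the log2 fold change had a Spearman rho of 0.037, as a description over genes that share the same 10 libraries.

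Whether the ratio of the subunits' median levels differed between the groups depended on how members were placed. With members placed by structure, the median TPM of the large over that of the small subunit was 0.85 ± 0.02 in cocultivated and 0.85 ± 0.04 in non-cocultivated libraries (SD, n = 5 each). With members placed by symbol it was 1.01 ± 0.06 in cocultivated and 0.925 ± 0.04 in non-cocultivated libraries. That difference is above the SD of either group, with ranges that overlapped slightly (0.969 to 1.11 and 0.878 to 0.977). By symbol, however, each median is the level of 1 gene. For the small subunit it was MRPS26, itself called lower, in cocultivated libraries 2 to 5 (86.27, 89.32, 88.15 and 82.73 TPM). In non-cocultivated libraries 1 to 5 it was MRPS18B, MRPS6, MRPS26, MRPS12 and MRPS26. A shift of the whole subunit cannot be read from this ratio. By symbol, the summed TPM of the large over that of the small subunit was 1.94 ± 0.02 in cocultivated libraries. It was 1.92 ± 0.01 in non-cocultivated libraries. By structure it was 2.09 ± 0.02 in cocultivated and 2.06 ± 0.01 in non-cocultivated libraries, with ranges that overlapped (2.07 to 2.11 and 2.05 to 2.09). Under either placing, the cocultivated library had the higher summed ratio in each batch. Whether the summed ratio differed between the groups was not tested. The summed level of all 78 members was 8779, 9165, 9257, 9159 and 8734 TPM in cocultivated libraries 1 to 5, against 9292, 9603, 9698, 9397 and 9860 TPM in the non-cocultivated ones. On this scale the groups did not overlap, and the mean of the cocultivated libraries differed by −5.76%. On TMM-scaled CPM the sums were 5492 to 6261 in cocultivated and 5694 to 6338 in non-cocultivated libraries, they overlapped, and the mean differed by −1.68%. The libraries of batch 1 were the lowest of their group in summed CPM.

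**Figure D4:**
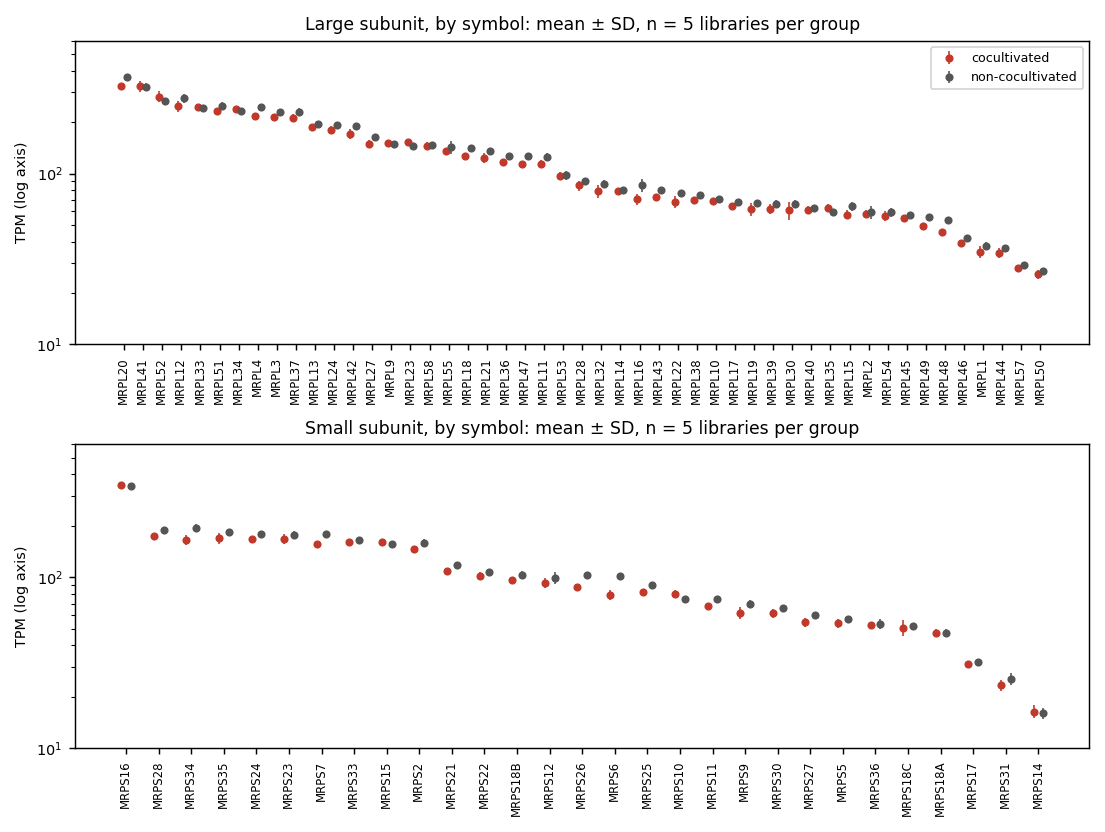
Level of each member in TPM (y axis, log scale), ordered by the mean over both groups, large subunit above and small subunit below, with the mean ± SD of 5 libraries per group. The members run from MRPL20 at 348 TPM to MRPS14 at 16.1 TPM, and the 2 points of most members lie next to each other, the cocultivated one often slightly below.

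The count of members called lower depended on the scale. The median log2 fold change of all tested genes was −0.06 with library totals in place of TMM and −0.06 with limma on log2(TPM + 1). With limma on log2(TPM + 1), 27 members were lower and 0 higher (1 at an unadjusted p under 0.05). The 27 are 34.6% of the members, against 19.0% lower and 30.1% in either direction among all tested genes. The median of the members was −0.10. On that scale the members lay 0.042 below the median of all genes on the log2 scale, against 0.024 on log2(TPM + 0.1) and 0.012 with TMM on counts. With library totals in edgeR, 18 were lower and 0 higher (2 at an unadjusted p under 0.05), and the 18 are 23.1% of the members, against 22.7% lower among all tested genes. DESeq2 called 2 higher and 5 lower, 8.97% of the members, against 28.0% of the genes given an adjusted p in that fit. MRPS6, MRPS26, MRPL48 and MRPL16 were lower under every scaling tried, whereas MRPS10 and MRPL52 kept a positive fold change but not their call under library totals or TPM.

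The batch numbers pair the libraries, and with the batch as a block in the edgeR fit 7 members were higher and 16 lower. That is 29.5% of the members, against 44.4% of all tested genes in the same fit. The 6 members called without the block were all among these 23, and the 17 others had log2 fold changes of at most 0.17 in size. The one with the smallest p among the 17 was MRPS34, a mitochondria-specific small-subunit protein, named after its value was seen, at −0.17 ± 0.04 with a block-adjusted edgeR p of 0.00394. It had 75.9, 96.3, 93.9, 97.4 and 101 CPM in cocultivated libraries 1 to 5, against 94.0, 103, 105, 104 and 114 CPM in the non-cocultivated ones, lower in each batch but overlapping between groups.

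Proteins of the mitochondrial ribosome that carry other symbols moved in both directions. DAP3, the GTP-binding protein of the small subunit, had a log2 fold change of 0.14 ± 0.04 (edgeR adjusted p 0.0130), with 152 ± 5.04 CPM in cocultivated and 137 ± 5.23 CPM in non-cocultivated libraries (SD, n = 5 each). PTCD3, a pentatricopeptide-repeat protein of the small subunit, fell by 0.19 on the log2 scale (SE 0.06, edgeR adjusted p 0.0238), with 83.8 ± 7.19 CPM in cocultivated and 95.3 ± 3.74 CPM in non-cocultivated libraries. The call of PTCD3 was lost without cocultivated library 2 or 3 or non-cocultivated library 2 (0.0535, 0.0519 and 0.0690). With limma on log2(TPM + 1) neither passed, at log2 fold changes of 0.07 for DAP3 (adjusted p 0.101) and −0.31 for PTCD3 (0.0838), and without a count filter DAP3 had an edgeR adjusted p of 0.0681. The other 3 of the 5, CHCHD1, AURKAIP1 and GADD45GIP1, did not pass.

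Of 16 mitochondrial translation factors, 0 were higher and 1 was lower by edgeR, as by DESeq2, which is 6.25% of the list. With an unadjusted edgeR p under 0.05 there were 0 higher and 3 lower. Among all tested genes, edgeR called 33.6% in either direction, and 42.9% had an unadjusted p under 0.05. The one called was MRRF, the recycling factor that splits the ribosome after termination, with a log2 fold change of −0.12 ± 0.04 and an edgeR adjusted p of 0.0423. Its call was lost without cocultivated library 1, 2, 3 or 5 (0.0686, 0.0659, 0.0768 and 0.0927) and without non-cocultivated library 2, 3 or 4 (0.106, 0.0861 and 0.108). Among the 29 genes of ribosome assembly and rRNA modification, 0 were higher and 6 lower by edgeR, as by DESeq2, with 0 and 11 at an unadjusted edgeR p under 0.05. The 6 are 20.7% of the list, against 15.8% lower and 33.6% in either direction among all tested genes. DHX30, an RNA helicase of mitochondrial RNA granules, fell by 0.22 on the log2 scale (SE 0.03, edgeR adjusted p 1.46e-04), with 110 ± 2.24 CPM in cocultivated and 129 ± 1.76 CPM in non-cocultivated libraries. PTCD1, which acts on mitochondrial leucine tRNA and on 16S rRNA, fell by 0.20 (SE 0.06, edgeR adjusted p 0.0147).

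Of the 24 genes of mitochondrial transcription and RNA processing, 0 were higher and 6 lower by edgeR. The 6 are 25% of the list, against 15.8% lower and 33.6% in either direction among all tested genes. With an unadjusted edgeR p under 0.05 there were 0 higher and 10 lower, where 42.9% of all tested genes had one. DESeq2 called 0 higher and 7 lower. HSD17B10, a dehydrogenase that is also a subunit of mitochondrial RNase P, fell by 0.27 on the log2 scale (SE 0.04, edgeR adjusted p 4.74e-04), with 97.7 ± 5.51 CPM in cocultivated and 118 ± 3.89 CPM in non-cocultivated libraries. POLRMT, the RNA polymerase of mitochondria, fell by 0.19 (SE 0.03, edgeR adjusted p 0.00105). The lists lay at a median log2 fold change of −0.079 for assembly and −0.094 for transcription and processing, against −0.022 for the members. With the batch as a block, 3 translation factors, 10 assembly genes and 11 genes of transcription and processing were lower. In that fit 0 of each list were higher, while 22.2% of all tested genes were lower and 44.4% were called in either direction. With library totals in place of TMM, 3, 13 and 13 were lower, against 22.7% lower and 36.8% in either direction among all tested genes.

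The products of the mitochondrial genome were far more variable between libraries than the members. Of its 13 mRNAs, 0 were called in either direction by edgeR, DESeq2 or limma on log2(TPM + 1), and 0 had an unadjusted p under 0.05 in any of the 3. Their standard errors had a median of 0.244, and their summed level was 11740 to 31252 CPM in cocultivated and 15683 to 28806 CPM in non-cocultivated libraries. The median log2 difference of the 13 ran from −0.65 in batch 3 to 1.10 in batch 5. The 2 mitochondrial rRNAs, which the ribosome contains, had log2 fold changes of 0.38 ± 0.23 for MT-RNR1 and 0.26 ± 0.22 for MT-RNR2 (edgeR adjusted p 0.219 and 0.402).

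**Figure D5:**
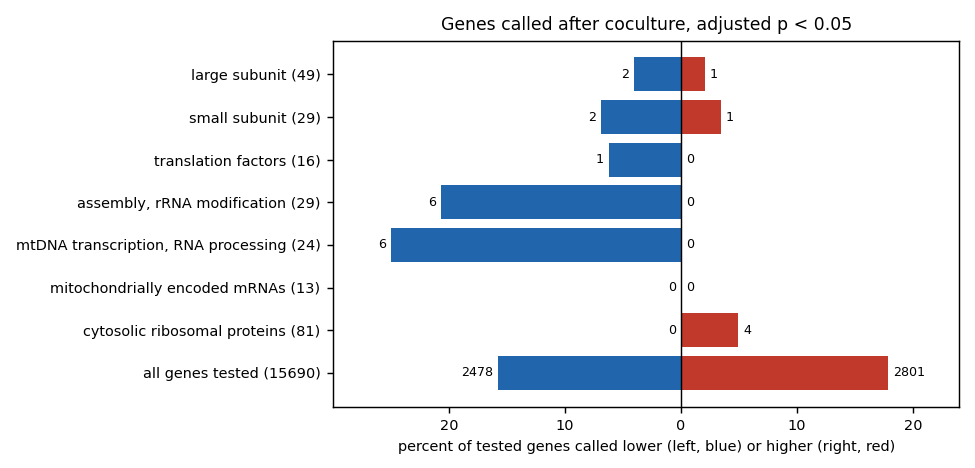
Share of tested genes called lower (left of 0, blue) and higher (right of 0, red) at an edgeR adjusted p under 0.05, without a batch block. Shown are the 2 subunits, the lists around them and all 15690 tested genes, with the number of genes at each bar. The bars of both subunits are shorter than those of all genes, which stand at 15.8% lower and 17.9% higher.

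The proteins of the cytosolic ribosome, which translates all nuclear mRNAs, were measured beside them. Of 81 tested, 4 were higher and 0 lower by edgeR, 4.94% in all, against 33.6% of all tested genes, with 10 and 1 at an unadjusted p under 0.05, and DESeq2 called 7 and 0. The batch block in edgeR gave 20 and 2, in a fit that called 44.4% of all tested genes. Their median log2 fold change was 0.078, with 76 positive. Those called were RPS27L (0.24 ± 0.05, edgeR adjusted p 0.00177) and RPS29 (0.29 ± 0.09, 0.0217), and, named after their values were seen, RPS3A and RPL10. The call of RPS29 was lost without non-cocultivated library 2, 3 or 4 (0.0505, 0.0560 and 0.0501). The sign of this set depended on the scaling, since with limma on log2(TPM + 1) only 33 of the 81 were positive. Its offset from all tested genes kept its sign. On log2(TPM + 1) the set's median (−0.011) lay 0.046 above that of all tested genes (−0.057), against 0.087 above with TMM. Without cocultivated library 1, 31 were called higher, in a fit that called 36.1% of all tested genes. The difference between the cytosolic and the mitochondrial set was not tested.

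Among 10 tested regulators of nuclear genes for mitochondria, 1 was higher and 2 lower, and with the batch as a block 1 and 3, near the shares of all tested genes (33.6% and 44.4%). ESRRA, a nuclear receptor that drives genes of oxidative metabolism, rose by 0.19 on the log2 scale (SE 0.04, edgeR adjusted p 0.00304), with 48.3 ± 1.53 CPM in cocultivated and 42.5 ± 1.66 CPM in non-cocultivated libraries. Its adjusted p with limma on log2(TPM + 1) was 0.0750. MYC, a transcription factor known to raise ribosome production, fell by 0.24 (SE 0.04, edgeR adjusted p 6.86e-04), with 359 ± 9.55 CPM in cocultivated and 425 ± 20.01 CPM in non-cocultivated libraries. GABPA, the DNA-binding subunit of GABP, named after its value was seen, fell by 0.22 (SE 0.06, edgeR adjusted p 0.0154). PPARGC1A, a coactivator of mitochondrial biogenesis, did not pass the filter on low counts.

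The promoters printed above were taken from a table of 27305 promoters of 300 bases, 250 before to 50 after the start, in which 69 of the 78 members matched by symbol. CCGGAAG occurred on either strand in 29 of the 69 (42.0%), against 10.7% of all promoters. AAGATGGC occurred in 20 (28.99%), against 3.03%. The motif of NRF1 occurred in 8 (11.6%) against 6.28%, and the E-box CACGTG, bound by MYC among others, in 6 (8.70%) against 7.43%. All promoters here include those of genes not tested, whereas every member was tested. The shares among tested genes alone were not computed. The motifs do not overlap one another in the 6 printed stretches. Of the 6 called members, 5 hold CCGGAAG, and MRPS6 holds none of the 4 motifs. AAGATGGC stands in the promoters of the 2 that rose, MRPS10 and MRPL52, and in none of the 4 that fell, but of the 20 members that hold it 5 had a positive fold change, against 18 of the 49 without it. The median log2 fold change was −0.018 with AAGATGGC and −0.029 without it, and −0.010 with CCGGAAG and −0.035 without it.

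Some members share sequence with other genes, which leaves their values less certain. For 53 of the 78, no 75-base window of their transcripts in GENCODE v29 occurs in another gene. For 6, more than 20% of the windows do, the highest share being 65.7% for MRPL12, the stalk protein, named for that share, whose partner gene had 4.54 counts on average against 7059 for MRPL12 itself. Exons of 29 members overlap a gene on the opposite strand and those of 16 a gene on the same strand. Of the 6 called members, MRPS6 alone has such an overlap. The strand setting of the counting is not given in the sources used here.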

How the data were processed

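Messenger RNA of PC3 cells was sequenced in 10 libraries. Tools listed in the submitters' processing notes are RSEM 1.3.3, Bowtie2 2.4.4 and bcl2fastq. Not given in the sources used here are the build, the annotation and whether strand was used in counting. Per the file headers, the deposited tables give each gene's expected count, the reads that RSEM assigned to it with shared reads divided by likelihood, and its TPM, a share of the library per effective length. The deposited FPKM column, a share of reads per length per the file headers, was not used.

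Expected counts were rounded and tested in R 4.3.3 with edgeR 4.0.16: filterByExpr (minimum count 10, minimum total 15), TMM scaling, the quasi-likelihood F test of cocultivated against non-cocultivated, and Benjamini-Hochberg adjustment over 15690 genes at 0.05. The SE of a log2 fold change is its size divided by the square root of F, and its 95% interval uses the t distribution of the fit. Levels are CPM on TMM-scaled sizes. The sums of cell markers are CPM of the library total, a count of 0 allows up to 3 counts (0.0582 to 0.0768 CPM), and such limits cover counting error only. The fit was tested on simulated data.

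Alternatives were library totals, RLE size factors, DESeq2 1.42.0, no count filter, limma 3.58.1 on log2(TPM + 1) and log2(TPM + 0.1), the batch as a block, no batch 1, and each library left out. The labels give the batch as shared, so the numbers pair the libraries. The correlation of deviations from the group means was 0.329, −0.019, 0.073, 0.104 and 0.281 for batches 1 to 5. The highest correlation of the cocultivated library with a non-cocultivated one of another number was 0.138, 0.109, 0.060, 0.088 and 0.018. For batch 2 it was above that of the pair, and for batches 3 and 4 only slightly below.

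Named members were, per subunit and direction, up to 6 called with the smallest p, the highest and lowest TPM, MRPS18A, MRPS30 and MRPS36, and per surrounding list the 2 called genes with the smallest p. Members and lists were chosen with earlier results of these data known.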

Additional observations from a re-analysis of the deposited data

Results flagged for a closer look

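Of 52 groups of 5 libraries checked, 6 held 1 library that stood apart from the other 4, where chance alone marks about 1 in 20 groups. MRPS6 had 49.2 CPM in non-cocultivated library 1, below the next value of 54.3 CPM. DAP3 had 128 CPM in non-cocultivated library 1, with 138 CPM next. HSD17B10 had 88.2 CPM in cocultivated library 1, with 98.5 CPM next. DHX30 had 106 CPM in cocultivated library 5, with 111 CPM next. RPS27L had 36.0 CPM in cocultivated library 5, above the next value of 32.1 CPM. RPS29 had 248 CPM in non-cocultivated library 5, with 211 CPM next. These 6 values come from 4 libraries, both libraries of batch 1 and both of batch 5.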

How the results depend on the processing

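The 4 members called lower kept direction and call under every alternative, and the large minus small difference of medians stayed within its spread between batches. The counts of members moved. They were 0 higher and 18 lower with library totals (0 and 9 in each subunit), and 0 and 4 without a count filter (0 higher in each subunit). With limma on log2(TPM + 1) they were 0 and 27 (large 0 and 16, small 0 and 11) and on log2(TPM + 0.1) 0 and 26 (large 0 and 15, small 0 and 11), and 1740 and 1733 genes in all were higher, against 2801. These 2 scales called 34.6% and 33.3% of the members, against 30.1% and 29.9% of all tested genes. The batch as a block gave 7 and 16 (large 5 and 10, small 2 and 6), and leaving out batch 1 gave 4 and 9 (large 3 and 4, small 5 lower). Leaving out 1 library gave 0 to 7 higher and 4 to 8 lower, in the large subunit 0 to 5 and 2 to 4, and in the small subunit 0 to 2 and 2 to 4. The 7 higher came without cocultivated library 1 and the 8 lower without non-cocultivated library 1. RLE size factors and DESeq2 gave 2 and 5. The share of members called was 29.5% with the block, against 44.4% of all tested genes. It was 16.7% against 36.3% without batch 1, and 23.1% against 36.8% with library totals. With 1 library left out it was 5.13% to 15.4%, against 28.2% to 36.1%. Without a count filter it was 5.13% against 14.4%. It was 8.97% with RLE and with DESeq2, against 33.6% and 28.0%. The cause of these shifts between settings was not tested.

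The large and small medians were −0.075 and −0.076 with library totals, −0.097 and −0.100 on log2(TPM + 1) and −0.098 and −0.101 on log2(TPM + 0.1). With 1 library left out they ran from −0.051 to 0.0036 and from −0.062 to −0.011. The members whose sign turned were near 0 and not called. MRPL50 stood at −0.042 with library totals, −0.058 and −0.060 on the TPM scales, −0.0041 without batch 1 and at lowest −0.016 (leave-one-out range −0.016 to 0.029). MRPS14 stood at −0.031 and MRPS16 at −0.042 with library totals, and MRPS16 ran from −0.013 to 0.053 with 1 library left out, −0.011 being the value without non-cocultivated library 1. The block changed the calls of 17 members not called without it, and removed none. The lowest count of a member was 506, and 5 libraries per group limit changes below about the widths of the intervals given.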
